A study of Homo sapiens with 6 samples.

Results

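The 10 genes described here, EGR1, EGR2, EGR3, IER2, IER3, IER5, NR4A1, SRF, ZFP36 and ARC, are known as immediate early genes of the serum response, and were taken by name from 23245 rows with a gene symbol. All 10 symbols were found, 1 row each. Polyadenylated RNA was sequenced from the pancreatic cancer line L3.6pl, an established human line. The comparison was between 3 ARID1A ko libraries, from L3.6pl cells deficient in ARID1A, and 3 parental libraries, from L3.6pl cells of wild-type genotype. Both groups grew in Minimum Essential Media with 10% fetal calf serum and received no drug, so serum was present throughout and no sample was starved or stimulated per the labels. The sources used here do not say how ARID1A was disrupted, or whether the ARID1A ko cells were 1 clone or several. No sample with ARID1A restored was analysed here, and nothing says that the triplicates came from separate cultures, so the p-values measure the spread between these libraries, which may be technical.

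Immediate early genes are transcribed within minutes of a growth signal, from factors already present in the cell, and many of their mRNAs are short-lived. Serum acts on them by RAS and ERK signalling, which phosphorylates the ternary complex factors ELK1, ELK3 and ELK4, and by signals that assemble actin filaments, which releases the myocardin-related coactivators MKL1 and MKL2. Both kinds of cofactor bind SRF, which recognises a DNA element called the CArG box. EGR1, EGR2 and EGR3 are zinc finger transcription factors, NR4A1 is an orphan nuclear receptor that acts as a transcription factor, and ARC encodes a protein best known from neuronal synapses. ZFP36 binds AU-rich elements of mRNAs and promotes their decay, and IER2, IER3 and IER5 encode small induced proteins.

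Levels are in FPKM, the fragments of a gene scaled to its transcript length and to its library. ARID1A, whose protein is a SWI/SNF chromatin remodelling subunit, was at 3.55, 3.28 and 3.61 FPKM in ARID1A ko libraries and at 11.8, 6.76 and 9.42 FPKM in parental libraries, a log2 difference of -1.18 (limma, adjusted p = 0.0061). The groups did not overlap, although transcript remained in ARID1A ko cells. Library values summed to between 576084 and 792187 FPKM, with 15635 to 16391 rows above 0. Total depth is unknown. From the steps between the lowest values, relative depth was 1.28, 0.729 and 0.797 in ARID1A ko libraries and 1, 0.783 and 1.02 in parental libraries, with parental library 1 as the unit. Parental library 2 had the highest sum and the steepest slope of log2 values on GC content, 0.14 per 10% GC against -0.10 to 0.064 in the other libraries. All 8 epithelial and ductal markers listed were expressed, with summed levels of 4562 to 5769 FPKM in ARID1A ko libraries and 6303 to 9860 FPKM in parental libraries. SOX9 was the 1 marker of these that passed, higher in ARID1A ko cells, while 5 were lower under quantile normalization. The 6 fibroblast markers summed to 0.346 to 0.594 FPKM in ARID1A ko libraries and 0.0176 to 0.137 FPKM in parental libraries, with DCN and LUM at 0 throughout. PDGFRA averaged 0.238 FPKM in ARID1A ko cells and 0.0365 FPKM in parental cells, and SPARC 0.197 FPKM in ARID1A ko cells and 0.0129 FPKM in parental cells, neither overlapping. COL6A3 went the other way, also without overlap, at 0 in each ARID1A ko library and 0.0195 FPKM on average in parental cells. PDGFRB overlapped, at 0.0203 FPKM in ARID1A ko cells and 0.0169 FPKM in parental cells. All of these values lie near the lower limit of measurement. With no minimum, 2 fibroblast markers passed as higher. The 3 islet markers were at 0 in all 6 libraries. The 4 acinar markers summed to 1.57 to 3.19 FPKM in ARID1A ko libraries and 0.959 to 1.09 FPKM in parental libraries. Endothelial markers summed to 8.64 to 9.23 FPKM in ARID1A ko libraries and 8.43 to 10.0 FPKM in parental libraries. Leukocyte markers summed to 5.95 to 7.65 FPKM in ARID1A ko libraries and 8.51 to 9.87 FPKM in parental libraries, with PTPRC at 0 in all libraries but 1. Most of that sum was CD68, which passed as lower at 6.44 FPKM in ARID1A ko cells and 9.17 FPKM in parental cells (limma, adjusted p = 0.0346). The endothelial marker PECAM1 also passed as lower, at 1.24 FPKM in ARID1A ko cells and 2.01 FPKM in parental cells (limma, adjusted p = 0.0254). Most of the endothelial sum was CDH5, which did not pass, at 7.62 FPKM in ARID1A ko cells and 7.08 FPKM in parental cells (limma, adjusted p = 0.594). The part of other cell types in the results was not tested.

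The promoter sequences below are from 3 members that rose, IER2, IER5 and ZFP36, and from 2 that did not pass the test, EGR1 and SRF. They are shown to compare the motifs they hold or lack. NR4A1 did not pass either and is not printed, and its 2 windows held no CArG box. The printed sequences are the 250 bases before the annotated start of each gene, from RefSeq on GRCh38.p14, in the direction of transcription. Capitals mark the CArG box bound by SRF, the core CGGAAG of sites for ETS-domain factors such as the ELK proteins, and TGACG, the core of the cyclic AMP response element, on either strand. None of these matches overlapped another. EGR1 lies at chr5:138465229-138465478, SRF at chr6:43171019-43171268, IER2 at chr19:13150161-13150410, IER5 at chr1:181088450-181088699 and ZFP36 at chr19:39406597-39406846, all on the plus strand.
IER2: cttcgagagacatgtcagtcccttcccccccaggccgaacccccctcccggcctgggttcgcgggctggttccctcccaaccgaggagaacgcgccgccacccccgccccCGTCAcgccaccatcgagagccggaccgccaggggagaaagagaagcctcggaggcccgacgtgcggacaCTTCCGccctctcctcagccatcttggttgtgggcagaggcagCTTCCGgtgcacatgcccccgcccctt
IER5: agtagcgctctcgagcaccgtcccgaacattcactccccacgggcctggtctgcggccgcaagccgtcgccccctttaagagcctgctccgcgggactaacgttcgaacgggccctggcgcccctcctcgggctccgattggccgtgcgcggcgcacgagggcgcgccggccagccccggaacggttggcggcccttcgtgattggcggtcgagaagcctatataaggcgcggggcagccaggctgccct
ZFP36: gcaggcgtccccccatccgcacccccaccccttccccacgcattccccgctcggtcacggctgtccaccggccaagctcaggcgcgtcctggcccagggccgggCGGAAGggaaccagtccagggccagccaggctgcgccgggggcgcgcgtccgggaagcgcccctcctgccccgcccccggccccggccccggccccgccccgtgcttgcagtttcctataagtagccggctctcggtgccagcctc
EGR1: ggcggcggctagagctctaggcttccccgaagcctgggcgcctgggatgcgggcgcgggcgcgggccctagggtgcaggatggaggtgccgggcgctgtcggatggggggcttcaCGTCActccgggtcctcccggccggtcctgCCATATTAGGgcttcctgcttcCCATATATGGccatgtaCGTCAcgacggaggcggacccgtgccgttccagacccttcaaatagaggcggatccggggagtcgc
SRF: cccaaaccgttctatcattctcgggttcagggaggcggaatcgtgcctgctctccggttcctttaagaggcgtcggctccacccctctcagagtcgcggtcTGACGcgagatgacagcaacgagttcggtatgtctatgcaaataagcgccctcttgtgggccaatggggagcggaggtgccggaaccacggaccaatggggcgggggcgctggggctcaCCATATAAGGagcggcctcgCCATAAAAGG

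EGR1 held 2 CArG boxes, CCATATTAGG at bases -105 to -96 and CCATATATGG at -83 to -74 from the start. SRF also held 2, CCATATAAGG at -30 to -21 and CCATAAAAGG at -10 to -1. The windows of IER2, IER5 and ZFP36 held none, which is the usual case, as only 454 of 35116 human promoter windows, 1.29%, had at least 1. IER2 held CGGAAG at 2 places and ZFP36 at 1 place, both strands searched, and 19.5% of all windows held it. TGACG lay at 2 places in EGR1 and at 1 place each in SRF and IER2, and in 24.6% of all windows. IER5 held none of the 3 motifs. Of the other members, EGR2 had 3 annotated windows, 1 of them with the CArG box CCATATATGG at -71 to -62 and TGACG at 2 places. NR4A1, which like EGR1 and SRF did not pass the test, had 2 windows and neither held any of these motifs. The EGR-type sequence GCGNGGGCG was found once each in EGR1, SRF and EGR2, and in 9.43% of all windows. The AP-1 sequence TGANTCA was found in none of the 11 windows of the 7 members that had one, and in 7.71% of all windows. The shares count windows of 300 bases, including 50 bases after the start. A match is a description of letters, and its absence says only that they are not in this window.

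Of the 10 members, 6 were expressed above the minimum of 0.5 FPKM on average and were tested. IER2, IER5 and ZFP36 rose in ARID1A ko cells, EGR1, NR4A1 and SRF did not pass, and none fell by limma, at an unadjusted p under 0.05 either. Across all 12826 tested genes, 15.9% passed, 7.82% as higher and 8.11% as lower. The median log2 difference of the 6 tested members was 0.32, beside -0.01 over all tested genes. The members were chosen with earlier results of these data known, and the AP-1 genes, described further below, are not among them. The 3 members with a mean below the minimum were EGR2, EGR3 and ARC, and IER3 was listed at 0 in every library. Library values are bulk averages, in which fewer expressing cells and less RNA per cell cannot be told apart.

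IER2, a nuclear protein implicated in transcription and cell motility, had the highest level of the members. It was at 87.1, 106 and 101 FPKM in ARID1A ko libraries and at 50.6, 64.6 and 49.6 FPKM in parental libraries. All ARID1A ko values lay above all parental values, with ARID1A ko library 1 the lowest of its group and parental library 2 the highest of its own. The means were 98.0 ± 9.67 FPKM in ARID1A ko cells and 55.0 ± 8.40 FPKM in parental cells (SD, n = 3 each), a 1.78-fold difference. On the log2(FPKM + 1) scale the difference was 0.83 ± 0.14 (SE; limma, adjusted p = 0.00908). It did not pass without ARID1A ko library 3 (limma, adjusted p = 0.0541) or without parental library 3 (limma, adjusted p = 0.0519).

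IER5, known to assist the heat shock factor HSF1 together with the phosphatase PP2A, was at 27.9, 30.1 and 30.6 FPKM in ARID1A ko libraries and at 17.9, 19.5 and 20.3 FPKM in parental libraries. Its groups were widely separated, with a range inside each group smaller than the gap between them. The means were 29.5 ± 1.47 FPKM in ARID1A ko cells and 19.2 ± 1.18 FPKM in parental cells (SD, n = 3 each), a 1.54-fold difference. The log2 difference was 0.60 ± 0.085 (SE; limma, adjusted p = 0.00453). IER5 passed in all 16 settings tried, with log2 differences of 0.55 to 0.64.

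ZFP36, also called tristetraprolin, was at 8.32, 10.7 and 10.5 FPKM in ARID1A ko libraries and at 6.37, 6.34 and 7.02 FPKM in parental libraries. ARID1A ko library 1 stood below the other two of its group but above every parental library. The means were 9.86 ± 1.33 FPKM in ARID1A ko cells and 6.58 ± 0.386 FPKM in parental cells (SD, n = 3 each), a 1.5-fold difference. The log2 difference was 0.51 ± 0.12 (SE; limma, adjusted p = 0.0263). It did not pass when ARID1A ko library 2 or 3 or parental library 1 or 3 was left out, with limma adjusted p values of 0.109, 0.121, 0.0687 and 0.075 in that order.

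**Figure D1:**
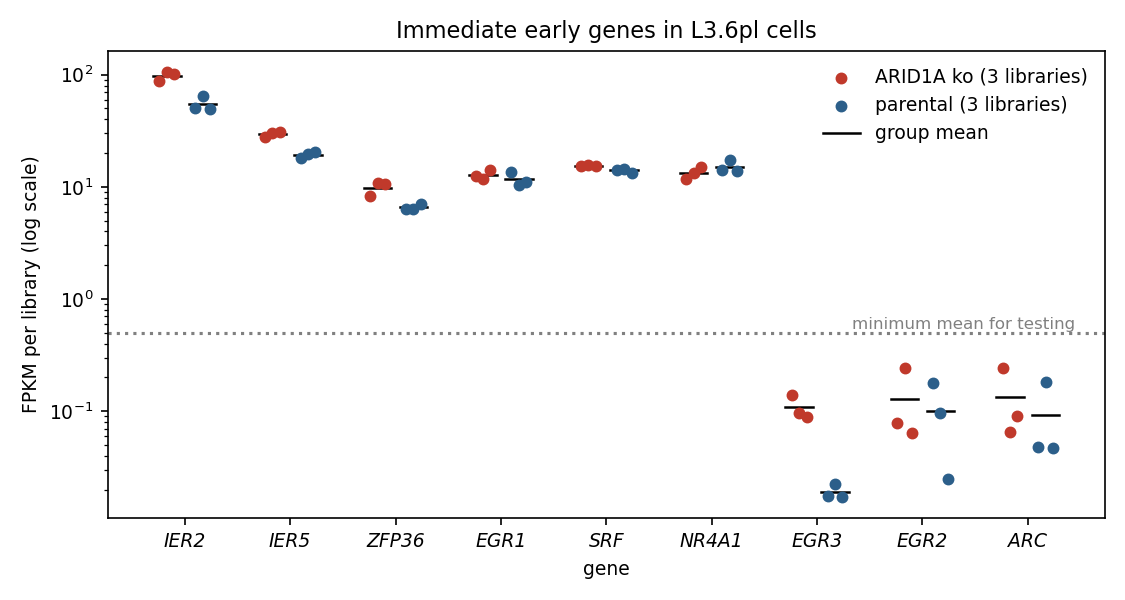
FPKM of 9 members in each library on a log axis, with ARID1A ko libraries left of parental libraries and a line at each group's mean. IER2, IER5, ZFP36, SRF and EGR3 show ARID1A ko values wholly above parental values, while EGR1, NR4A1, EGR2 and ARC overlap between groups. Of the former, SRF did not pass the test and EGR3 lay below the minimum. IER3, at 0 in all libraries, is not drawn on the log axis, and the dotted line marks the minimum mean of 0.5 FPKM.

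The plot of FPKM by member shows a different picture for EGR1, a direct SRF and ELK1 target. It was at 12.4, 11.7 and 14.0 FPKM in ARID1A ko libraries and at 13.6, 10.3 and 10.9 FPKM in parental libraries. The highest parental library exceeded 2 of the 3 ARID1A ko libraries. The means were 12.7 ± 1.18 FPKM in ARID1A ko cells and 11.6 ± 1.75 FPKM in parental cells (SD, n = 3 each). The log2 difference was 0.12, with a 95% interval of -0.17 to 0.42 (limma, adjusted p = 0.569).

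NR4A1, also known as NUR77, was at 11.7, 13.2 and 14.9 FPKM in ARID1A ko libraries and at 14.2, 17.5 and 13.7 FPKM in parental libraries. ARID1A ko library 3 lay within the parental range, so the groups overlapped. The means were 13.3 ± 1.59 FPKM in ARID1A ko cells and 15.1 ± 2.06 FPKM in parental cells (SD, n = 3 each). The log2 difference was -0.17, with a 95% interval of -0.47 to 0.13 (limma, adjusted p = 0.421).

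SRF, the factor through which serum reaches many of these genes, had the smallest spread of the tested members. It was at 15.3, 15.7 and 15.2 FPKM in ARID1A ko libraries and at 14.2, 14.5 and 13.3 FPKM in parental libraries. All ARID1A ko values lay above all parental values, by a small margin. The means were 15.4 ± 0.259 FPKM in ARID1A ko cells and 14.0 ± 0.629 FPKM in parental cells (SD, n = 3 each). The log2 difference was 0.13, with a 95% interval of -0.05 to 0.31 (limma, adjusted p = 0.312). With SRF, 4 of the 6 tested members had groups that did not overlap, beside 35.3% of all tested genes.

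EGR3, EGR2 and ARC were close to the lower limit of measurement. EGR3 was at 0.139, 0.0970 and 0.0887 FPKM in ARID1A ko libraries and at 0.0177, 0.0226 and 0.0173 FPKM in parental libraries. Scaled by relative depth and divided by the lowest library, this was 10, 4 and 4 in ARID1A ko libraries and 1 in each parental library. The groups did not overlap, and EGR3 passed when no minimum was applied (log2 difference 0.12, limma, adjusted p = 0.0296), but the parental values all sit at this lowest level. EGR2 was at 0.0792, 0.242 and 0.0633 FPKM in ARID1A ko libraries and at 0.177, 0.0967 and 0.0247 FPKM in parental libraries. ARC was at 0.244, 0.0656 and 0.0899 FPKM in ARID1A ko libraries and at 0.0478, 0.183 and 0.0468 FPKM in parental libraries. For both, the groups overlapped and the values varied widely within each group. With no minimum, neither passed, with limma adjusted p values of 0.816 for EGR2 and 0.728 for ARC.

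IER3, a regulator of apoptosis and of ERK signalling, was listed at 0 in all 6 libraries. In the order of protein-coding genes on chromosome 6, 35 of the 40 nearest neighbours of IER3, 87.5%, were also at 0 in every library. The share was 28.1% of the 986 protein-coding rows of chromosome 6 and 23.3% of all rows. IER3 lay in an unbroken run of 35 such rows, ending at ZNRD1 on one side and PSORS1C1 on the other. An exact 0 across such a run can be a failed estimate, so no level is read for IER3.

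Levels per length put IER2 above IER5 in both groups, with no overlap, and both above the rest. In ARID1A ko cells SRF followed, above NR4A1 and EGR1, whose ranges overlapped. In parental cells the ranges of NR4A1 and SRF overlapped, and so did those of SRF and EGR1. ZFP36 was the lowest of the tested members in both groups and did not overlap its neighbours. Spread between libraries of a group, as the SD of log2(FPKM + 1), was 0.046 for SRF and 0.078 for IER5, against a median of 0.16 over tested genes. EGR1, IER2, NR4A1 and ZFP36 lay between 0.14 and 0.18. In ARID1A ko library 1, all 6 tested members lay below their group mean. In ARID1A ko libraries 2 and 3, 5 of 6 lay above it each. The calls of IER2 and ZFP36 depended on which library was left out, as the plot of adjusted p by setting shows, and EGR1, NR4A1 and SRF passed in none of the 16 settings.

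**Figure D2:**
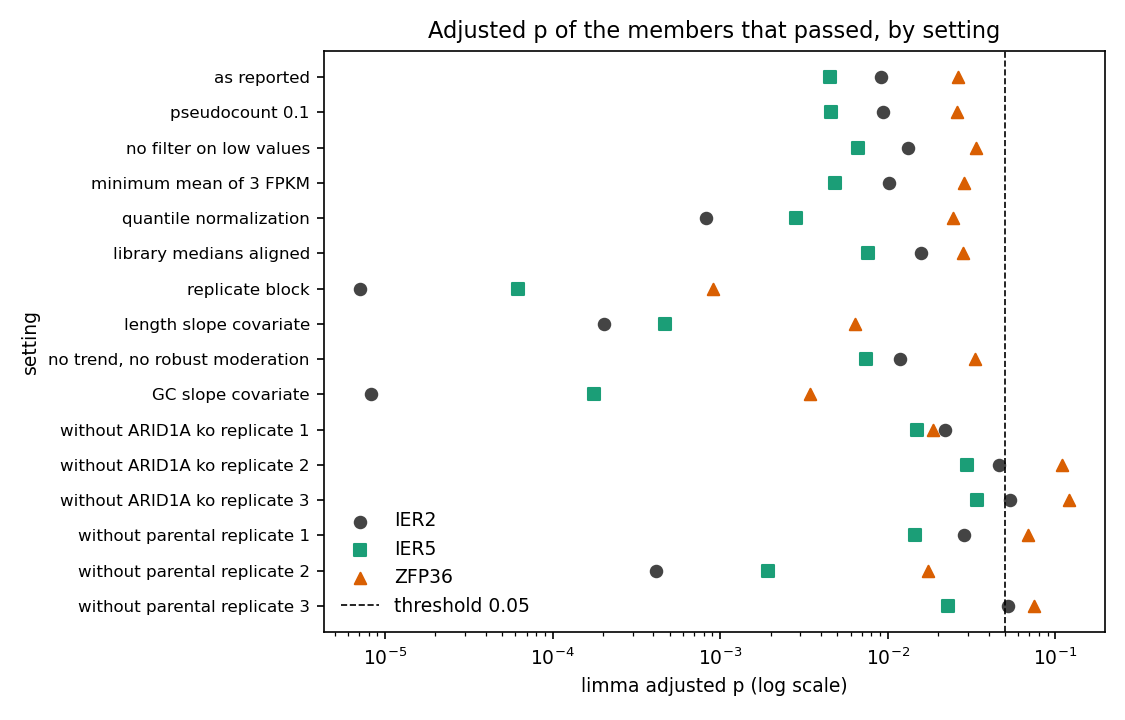
Adjusted p from limma, on a log axis, of IER2, IER5 and ZFP36 in each of the 16 settings, with a dashed line at the threshold of 0.05. IER5 stays below the line throughout, IER2 crosses it in 2 settings and ZFP36 in 4, all with 1 library left out.

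Of 4 paralogs tested, 1 rose, 1 fell and 2 did not pass, while 15.9% of all tested genes passed. NR4A2, a close relative of NR4A1, was at 6.5, 5.26 and 5.33 FPKM in ARID1A ko libraries and at 2.62, 1.61 and 2 FPKM in parental libraries, without overlap. It rose 2.74-fold, with a log2 difference of 1.13 ± 0.15 (SE; limma, adjusted p = 0.00323). ZFP36L2, a relative of ZFP36 that also binds AU-rich elements, was at 10.8, 9.16 and 10.6 FPKM in ARID1A ko libraries and at 26, 19.8 and 22.3 FPKM in parental libraries. It fell, with a log2 difference of -1.08 ± 0.12 (SE; limma, adjusted p = 0.0016). Both passed in all 16 settings tried. ZFP36L1 did not pass, at 57.2, 52.6 and 59.7 FPKM in ARID1A ko libraries and 70.5, 47.6 and 60.3 FPKM in parental libraries, and was the most abundant of the 3. IER5L, a relative of IER5, had a log2 difference of 0.55 and did not pass (limma, adjusted p = 0.16). It passed without parental library 2 (limma, adjusted p = 0.00177) and with the length or GC slope as a covariate (limma, adjusted p = 0.00275 and 0.00194). It was at 35.3, 45.4 and 37.7 FPKM in ARID1A ko libraries and 20.7, 38.2 and 23.7 FPKM in parental libraries. EGR4 and NR4A3 were below the minimum.

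**Figure D3:**
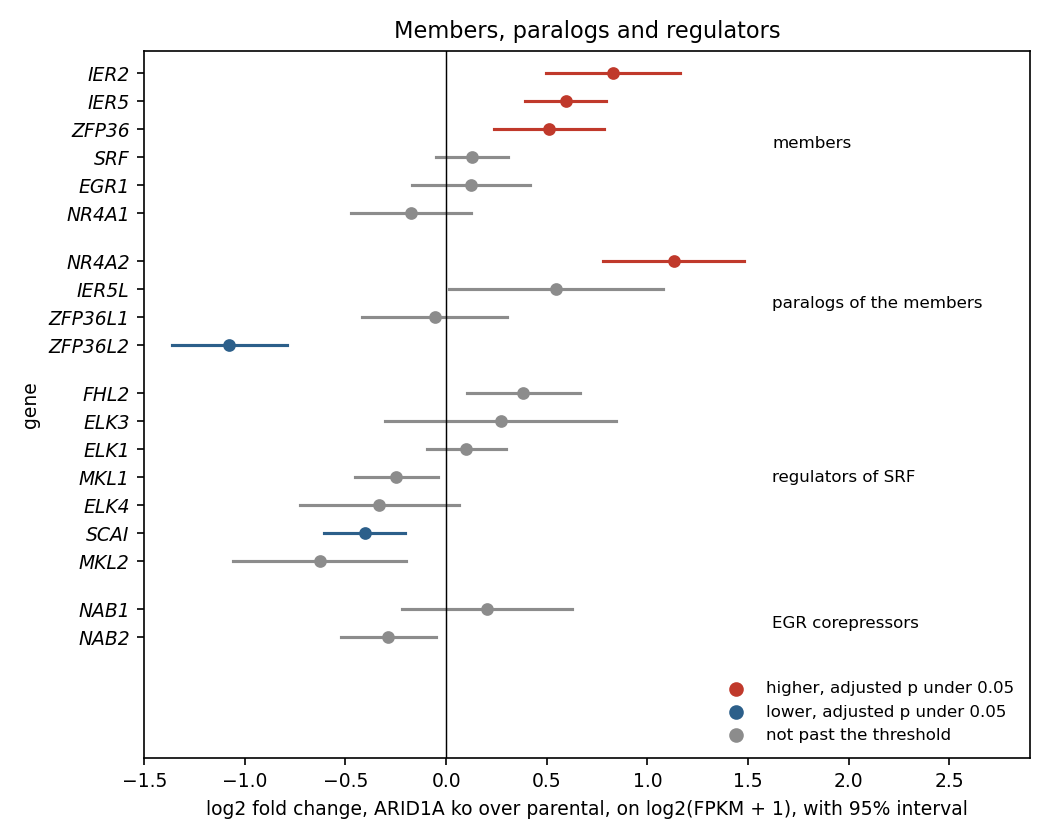
Log2 difference of ARID1A ko over parental for members, paralogs, SRF regulators and EGR corepressors, with 95% intervals from limma. NR4A2 stands right of 0 and ZFP36L2 left of it, while the SRF regulators lie on both sides.

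Shares of each family were taken within libraries. NR4A2 made up 29.96 ± 4.81% of the summed NR4A FPKM in ARID1A ko cells and 12.1 ± 3.56% in parental cells (SD, n = 3 each). The NR4A sum was 19.1 ± 1.09 FPKM in ARID1A ko cells and 17.3 ± 1.71 FPKM in parental cells (SD, n = 3 each). ZFP36 made up 12.9 ± 1.94% of the summed ZFP36 family in ARID1A ko cells and 7.54 ± 1.23% in parental cells, and ZFP36L2 13.3 ± 0.775% in ARID1A ko cells and 25.7 ± 1.02% in parental cells (SD, n = 3 each). EGR1 made up 96.5 to 98.1% of the summed EGR family in ARID1A ko libraries and 97.4 to 99.3% in parental libraries. The ratio of ZFP36 to ZFP36L2 was 0.771, 1.17 and 0.995 in ARID1A ko libraries and 0.245, 0.321 and 0.315 in parental libraries. The ratio of NR4A2 to NR4A1 was 0.554, 0.397 and 0.358 in ARID1A ko libraries and 0.184, 0.0919 and 0.146 in parental libraries. The ratio of IER5 to IER5L overlapped between groups. Of 7 ratios computed, all chosen after their values were seen, 6 had groups that did not overlap. For each of these 6 the exact two-sided permutation p was 0.1, the smallest that 3 against 3 libraries allow, or 0.117 adjusted over the 7.

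**Figure D4:**
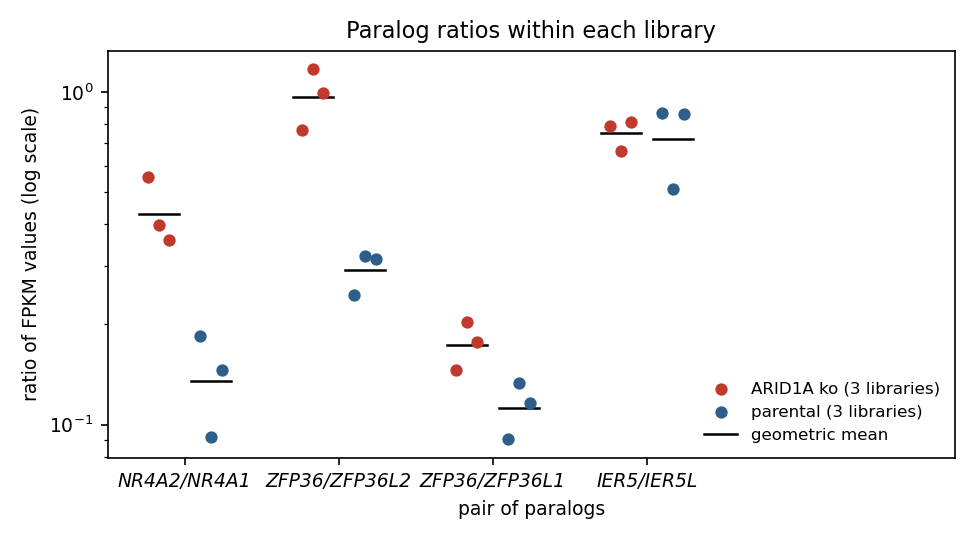
Ratio of FPKM between paralogs within each library on a log axis, with ARID1A ko libraries left of parental libraries and a line at each group's geometric mean. The ratios of NR4A2 to NR4A1 and of ZFP36 to each relative lie higher in ARID1A ko libraries, while IER5 to IER5L overlaps.

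Among regulators of SRF, 7 of the 8 found in the files were tested. Of these, 0 were higher and 1 was lower by limma, beside 7.82% and 8.11% of all tested genes. Before adjustment (limma, p under 0.05), 1 was higher and 3 were lower. SCAI, known to bind MKL1 and repress SRF targets, was at 1.03, 0.992 and 0.890 FPKM in ARID1A ko libraries and at 1.69, 1.58 and 1.56 FPKM in parental libraries. It fell, with a log2 difference of -0.40 ± 0.085 (SE; limma, adjusted p = 0.0202), and no value overlapped. The call was lost without any single library but parental library 2, with limma adjusted p values up to 0.0957. MKL2 was at 1.80, 1.57 and 1.85 FPKM in ARID1A ko libraries and at 4.37, 2.28 and 3.28 FPKM in parental libraries (limma, adjusted p = 0.061). MKL1 was at 8.06, 9.05 and 8.20 FPKM in ARID1A ko libraries and at 9.84, 10.8 and 9.95 FPKM in parental libraries (limma, adjusted p = 0.109). FHL2, an SRF target and a cofactor of SRF, was at 116, 123 and 122 FPKM in ARID1A ko libraries and at 82.8, 103 and 92.0 FPKM in parental libraries (limma, adjusted p = 0.0729). With quantile normalization 1 was higher and 2 lower. MKL2, FHL2 and ELK4 passed when parental library 2 was left out and with the GC slope as a covariate, and MKL1 passed with the length or GC slope. Of the ternary complex factors, ELK1, ELK3 and ELK4 did not pass with all libraries and group as the only term. Their log2 differences were 0.10, 0.27 and -0.33. ELK3 passed with the length slope as a covariate, where its difference was 0.43 (limma, adjusted p = 0.00579). NAB1 and NAB2, corepressors that bind EGR1, did not pass either, with log2 differences of 0.20 and -0.29, but both passed with the length or GC slope.

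Further groups of the serum response were read by their counts. Beside these and the later lists, 15.9% of all tested genes passed, 7.82% as higher and 8.11% as lower. When parental library 2 was left out, 4079 of all tested genes passed, against 2043 with it. Among 15 tested RAS to ERK kinases, 0 rose and 2 fell by limma, with 1 higher and 3 lower before adjustment (p under 0.05), and the median log2 difference was -0.01. RPS6KA1, which encodes the kinase RSK1, had a log2 difference of -0.56 (limma, adjusted p = 0.00773) and MAPK3, which encodes ERK1, of -0.74 (limma, adjusted p = 0.0161). MAPK3 did not pass without ARID1A ko library 1 or 3, and 2 kinases rose and 4 fell without parental library 2. Among 8 AP-1 genes, 0 rose and 3 fell by limma, with 1 higher and 3 lower before adjustment (p under 0.05), and the median was 0.02. FOS, the gene classically induced together with EGR1, was at 16.5, 16.7 and 18.9 FPKM in ARID1A ko libraries and at 83.2, 70.4 and 79.1 FPKM in parental libraries (limma, adjusted p = 3.87e-05). The ratio of EGR1 to FOS was thus 0.753, 0.702 and 0.739 in ARID1A ko libraries and 0.164, 0.147 and 0.138 in parental libraries. FOSL2 fell too, with a log2 difference of -1.43 (limma, adjusted p = 0.00154). JUN had a log2 difference of -0.39 (limma, adjusted p = 0.0226), which was lost without any single library but parental library 2. Without parental library 2, 2 AP-1 genes were higher, and with quantile normalization 1 was.

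Of 35 other immediate and delayed early genes tested, 15 rose, 5 fell and 15 did not pass, with a median log2 difference of 0.32. Leaving out single libraries gave 11 to 18 higher and 2 to 8 lower: 8 lower without parental library 2, 2 without ARID1A ko library 3 or parental library 3, and 3 without ARID1A ko library 1 or 2. CYR61, CTGF, SGK1 and LIF had the smallest adjusted p values. CYR61, an extracellular matrix protein, was 5.70-fold higher in ARID1A ko cells, and SGK1, a serum-induced kinase, 5.51-fold higher. Of 12 tested ERK feedback phosphatases and inhibitors, 3 rose and 0 fell by limma, with 3 higher and 1 lower before adjustment (p under 0.05). SPRY2 rose 3.52-fold and SPRY4 2.01-fold, both inhibitors of receptor signalling to ERK. DUSP5, a nuclear ERK phosphatase, did not pass without any single library but parental library 2, and without that one 2 genes of the list fell.

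The cytoskeletal SRF targets had 4 of 21 tested members higher and 0 lower by limma, with 8 higher and 0 lower before adjustment (p under 0.05), and a median log2 difference of 0.16. The 4 were CALD1, FHL1, CNN2 and TLN1, which encode actin-binding proteins, except FHL1, a LIM domain protein. CALD1 was at 2.37, 1.76 and 1.92 FPKM in ARID1A ko libraries and at 0.547, 0.376 and 0.385 FPKM in parental libraries. CNN2 was at 189, 235 and 226 FPKM in ARID1A ko libraries and at 113, 149 and 121 FPKM in parental libraries. The count was 1 without ARID1A ko library 3, 2 without ARID1A ko library 2 or parental library 3, and 7 without parental library 2. Quantile normalization gave 1 lower, and TLN1 did not pass there.

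Reported targets of EGR1 had 3 of 13 tested members higher and 3 lower, with a median log2 difference of 0.22. PDGFB, a growth factor, was 7.41-fold higher in ARID1A ko cells, and ICAM1, a leukocyte adhesion receptor, was at 4.19, 4.43 and 4.24 FPKM in ARID1A ko libraries and at 0.0646, 0.192 and 0.232 FPKM in parental libraries. The parental values of ICAM1 lie near the lower limit, so no fold is given, and its log2 difference was 2.19 with a pseudocount of 1 and 4.12 with 0.1. By contrast, PTGES, a prostaglandin synthase, and F3, tissue factor, fell with log2 differences of -1.05 and -0.68. The lower count was 1 without ARID1A ko library 3, and the higher count was 5 without parental library 2. Reported mRNA targets of ZFP36, a list that holds ZFP36 itself, had 6 of 14 tested members higher and 3 lower, with a median of 0.09. IL8 was 6.25-fold higher, BIRC3, an inhibitor of apoptosis, 5.02-fold, CXCL1 3.41-fold and LIF 3.08-fold. The 3 lower were VEGFA, PIM1 and MYC, with log2 differences of -0.83, -0.66 and -0.37 (limma, adjusted p = 0.00556, 0.00307 and 0.0417). TNF, also on this list, was at 0 in every library and was not tested. The lower count was 6 without parental library 2. Of 10 tested heat shock genes, 0 passed by limma, with 3 higher and 0 lower before adjustment (p under 0.05). Without parental library 2, 3 were higher, and with neither trend nor robust moderation 1 was. The length slope gave 4 higher and 1 lower, the GC slope 5 higher and 1 lower, and the replicate block 2 higher and 1 lower. Over all tested genes these 3 settings called 4473, 5534 and 4049 in that order, against 2043 with all libraries and group alone. HSPA1A and HSPA1B were listed at 0 in every library, as IER3 was, and were not tested.

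**Figure D5:**
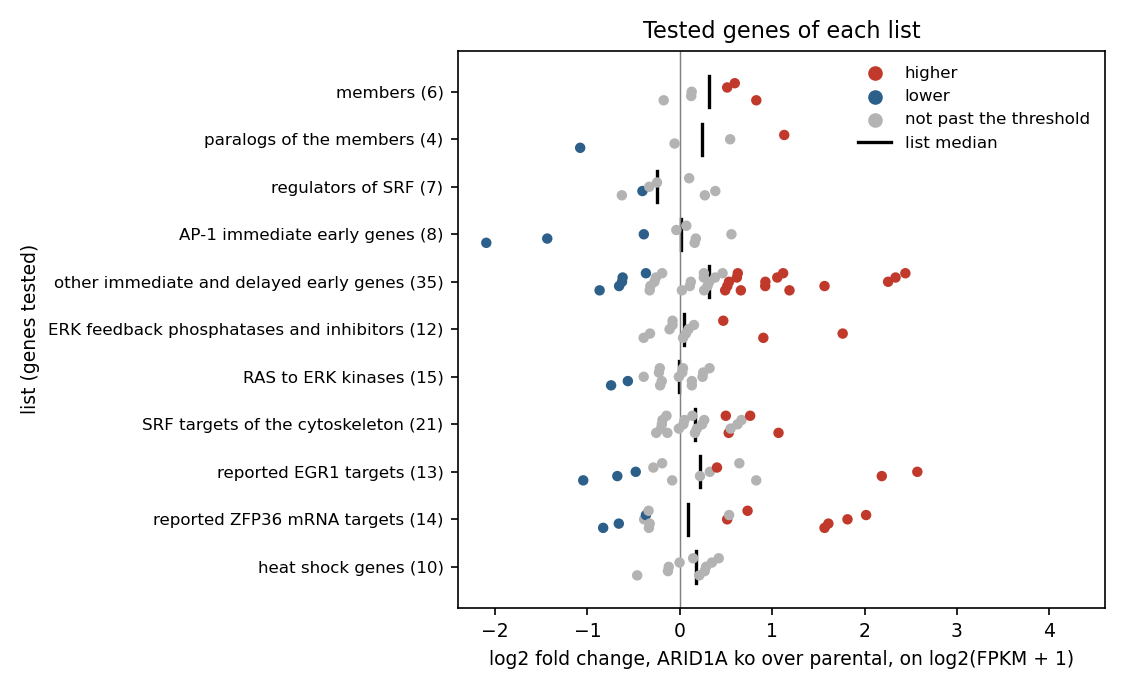
Log2 difference of ARID1A ko over parental for each tested gene of the lists, with a line at each list's median. Medians lie between -0.25 and 0.32, and single genes such as PDGFB and FOS reach furthest to either side.

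Over the 6 libraries, the profiles most like that of EGR1 were those of CMIP, PRR12, SETD1B, LAMA5 and KDM6B among 9848 others averaging 3 FPKM or more. The root mean square difference of centred log2 values to EGR1 was 0.035 to 0.042 for these, against a median of 0.25. EGR1 did not pass between groups, so this likeness also takes in differences between libraries of the same group. Shared regulation was not tested. SRF ranked 997th with 0.14, and NR4A1, ZFP36, IER5 and IER2 ranked 4833rd, 5198th, 6026th and 8513th.

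Of the gene features the choice did not use, GC content was the one in which all 10 members lay on the same side of the median of tested genes. Genes were matched to GENCODE transcripts, and IER2 and IER5 have 1 exon, EGR1, EGR2, EGR3, IER3 and ZFP36 2, ARC 3, SRF 7 and NR4A1 8, against a median of 8 over 12349 tested genes with a transcript. Transcripts ran from 1244 bases for IER3 to 4336 bases for EGR3, beside a median of 3099. All 10 exceeded the median GC content of 49.1%, from 49.8% in IER5 to 66.8% in ARC. The AU-rich sequence TATTTAT, the kind of site ZFP36 binds, occurred 4 times each in IER3 and IER5, 3 times in ZFP36 and 2 times in SRF, and was absent from the others. It occurred in 36.5% of the tested transcripts.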

How the data were processed

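Libraries came from L3.6pl cells, in 3 ARID1A ko and 3 parental samples, grouped and numbered by title. Per the labels' protocols, polyadenylated RNA from 500 ng was made into libraries with a kit that does not mark strand, so a gene and its antisense partner cannot be told apart. The authors deposited 1 table per sample of FPKM per gene symbol. Per the submitters' processing notes, the tools were Cuffdiff 2.2.1.5, TopHat2 2.1.1 and Cuffnorm 2.2.1.2, on build GRCh37. The sources used here give neither the annotation nor how libraries were scaled. FPKM depends on effective length, which affects short genes most, and library scaling hides any overall change of RNA per cell. Of 23273 rows, 28 had a symbol turned into a date and were left out.

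From these values, log2(FPKM + 1) of the 12826 genes averaging 0.5 FPKM or more, of 17832 rows above 0, was tested with limma 3.58.1 in R 4.3.3, with mean-variance trend and robust moderation. P-values are two-sided and Benjamini-Hochberg adjusted over all tested genes at 0.05. Fold changes on this scale understate those of low genes. Total depth is unknown, so precision rests on 3 libraries per group. Alternatives were another pseudocount, no filter, a minimum of 3 FPKM, quantile normalization, aligned medians and a replicate block. Others were length and GC slopes as covariates, moderation with neither trend nor robust setting, and each library left out.

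Named genes are ARID1A, the members, tested paralogs, SRF regulators and EGR corepressors, up to 4 called genes with the smallest adjusted p from other lists, and the 5 profiles nearest EGR1. Markers and genes at the ends of a run are named beside these. The members and lists were chosen with earlier results of these data known. No coordinates come from the files. Sequences and promoters are from RefSeq GRCh38.p14, a different build from the files', and transcript features from GENCODE on GRCh38, for 96.3% of tested genes. Older symbols such as MKL1, MKL2 and IL8 are kept as deposited.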

Additional observations from a re-analysis of the deposited data

How the results depend on the processing

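The count of called genes was 2043 (1003 higher and 1040 lower in ARID1A ko cells). Leaving out 1 library gave 964 to 4079 genes, 531 to 1982 higher and 433 to 2097 lower. Without parental library 2 the count was 4079, and without ARID1A ko library 3 it was 964. It was 4473 (2004 higher and 2469 lower) with the length slope as a covariate, and 5534 (2582 higher and 2952 lower) with the GC slope, an alternative chosen after seeing the data. A minimum of 3 FPKM gave 667 higher. The cause was not tested. Members called higher numbered 1 to 3 with a library left out, 1 without ARID1A ko library 3 or parental library 3, and 4 with no filter, where EGR3 joined. Members called lower were 0 by limma in each setting. The log2 difference of ZFP36L1, -0.06 with all libraries, changed sign to 0.037 with the length slope, and ran from -0.21 without parental library 2 to 0.073 without parental library 1. That of PRR12 ran from -0.0073 without parental library 2 to 0.22 without parental library 1, and that of SETD1B from -0.0021 to 0.23. None of these 3 passed in those settings. Over all named genes and alternatives, 653 values kept their direction and side of the threshold, 26 newly passed it and 36 no longer did. Length and GC slopes also raised list counts, to 10 higher and 1 lower of the cytoskeletal SRF targets with length, and to 4 higher and 5 lower of the RAS to ERK kinases with GC.

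Deviations of samples with the same number in both groups correlated with r = 0.219, 0.217 and -0.0131. For samples with different numbers, r ran from -0.267 to 0.0825. Whether the numbers pair the samples was not tested. With the replicate block, 4049 genes were called, 1861 higher and 2188 lower, and the 3 members called were IER2, IER5 and ZFP36. IER5L, MKL2, FHL2, ELK4 and NAB2 also passed with that block. The total depth is unknown, and EGR2, EGR3 and ARC lie near the lower limit of measurement, so the size of a difference in them was not measurable with any precision. EGR2 and ARC overlapped between groups, while EGR3 did not.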
